A study of Mus musculus with 4 samples.

Results

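Gata3, Gata2, Prox1, Zfpm1 and Zfpm2 were followed across 4 genotypes of the mouse cochleovestibular ganglion, the paired cluster of young auditory and vestibular neurons beside the inner ear. They are 5 of 25239 gene symbols and were taken by name as factors of cochlear neuron identity and cofactors of GATA proteins. RNA was sequenced from ganglia dissected at embryonic day 11.5, with 1 library each for the labels control, Isl1CKO, Pou4f1KO and DKO. The names are taken to stand for conditional loss of Isl1 (Isl1CKO), loss of Pou4f1 (Pou4f1KO) and loss of both genes (DKO). ISL1 is a LIM-homeodomain and POU4F1 a POU-homeodomain transcription factor of early sensory neurons. The Cre driver, the alleles, the strain, the genotype of the control embryos and the number of embryos in a library are not given in the sources used here. No genotype had a second library, so no difference below has a replicate check or a p-value.

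GATA3 is a zinc-finger transcription factor. In the inner ear it is found in the otic epithelium and in the neurons that become the spiral (cochlear) ganglion, and loss of 1 human copy causes a syndrome that includes deafness. GATA2 is its close paralog, known from blood progenitors, ventral interneurons and the vestibular part of the ear. PROX1 is a homeodomain factor of lymphatic endothelium, neural progenitors and developing sensory organs, and it takes part in the wiring of spiral ganglion neurons. The proteins FOG1 (encoded by Zfpm1) and FOG2 (encoded by Zfpm2) act by attaching to a zinc finger of GATA factors, where they can bring in co-repressors, among them CtBP proteins and the nucleosome-remodelling complex NuRD.

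The values are TPM (a transcript abundance), which are scaled for gene length and library total and so allow levels to be compared between genes. All 28 pan-neuronal genes examined reached 1 TPM in every library, with a summed level of 16866 to 19600 TPM. Markers of other cells were also present, such as otic epithelium (401 to 939 TPM summed over 23 genes) and red blood cells and their progenitors (6053 to 7291 TPM over 14 genes), so the libraries hold more than neurons. Of the targeted genes, Pou4f1 was scarce where it should be, at 16.6 TPM in Pou4f1KO and 14.6 in DKO against 146 in control and 188 in Isl1CKO. Isl1 stood at 450 TPM in control and 340 in Pou4f1KO against 854 in Isl1CKO and 579 in DKO. Isl1 was therefore higher, not lower, in the 2 libraries marked for it. The TPM ratio was 1.90 for the library labelled Isl1CKO to control and 1.70 for the library labelled DKO to Pou4f1KO. Reads outside a deleted part would still be counted, and the source of the higher level was not tested. Because Isl1 was not lower in them, both libraries are named by their labels, and every direction drawn from them rests on those labels.

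Gata3 was abundant in control and in Pou4f1KO and much scarcer in both libraries marked for Isl1. Its level was 38.5 TPM in control, 7.39 in the library labelled Isl1CKO, 49.9 in Pou4f1KO and 9.43 in the library labelled DKO. The 2 low libraries did not overlap with the 2 high ones: the higher of the low pair reached 9.43 TPM and the lower of the high pair 38.5. Of the 15049 genes that reached 1 TPM in some library, 21.5% had both libraries marked for Isl1 below both others. The plain TPM ratio was 5.21-fold lower in the library labelled Isl1CKO than in control, 4.08-fold lower in the library labelled DKO than in control and 5.29-fold lower in the library labelled DKO than in Pou4f1KO. The mean read depth over the gene was 228 in control, 36.5 in the library labelled Isl1CKO, 288 in Pou4f1KO and 54.9 in the library labelled DKO. Gata3 lies on mouse chromosome 2 (mm10, 9857078 to 9878600, minus strand) and has up to 6 exons per transcript in GENCODE M21.

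Differences from here on are log2 ratios of (TPM + 1), and a gene at least 2-fold different (a ratio of at least 1 in size) is counted as higher or lower. This was set against the 15049 genes that reached 1 TPM in some library. All 5 genes did so in every library. For Gata3 the log2 ratio was −2.24 in the library labelled Isl1CKO against control, where 2 of the 15049 genes had a lower ratio. It was −1.92 in the library labelled DKO against control, with 58 genes lower, and −2.29 in the library labelled DKO against Pou4f1KO, with 17 genes lower. Against control, Pou4f1KO differed by 0.36, and the library labelled DKO differed from the library labelled Isl1CKO by 0.31. Gata3 was thus under 2-fold different wherever the pair of libraries differed only in the Pou4f1 label.

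**Figure D1:**
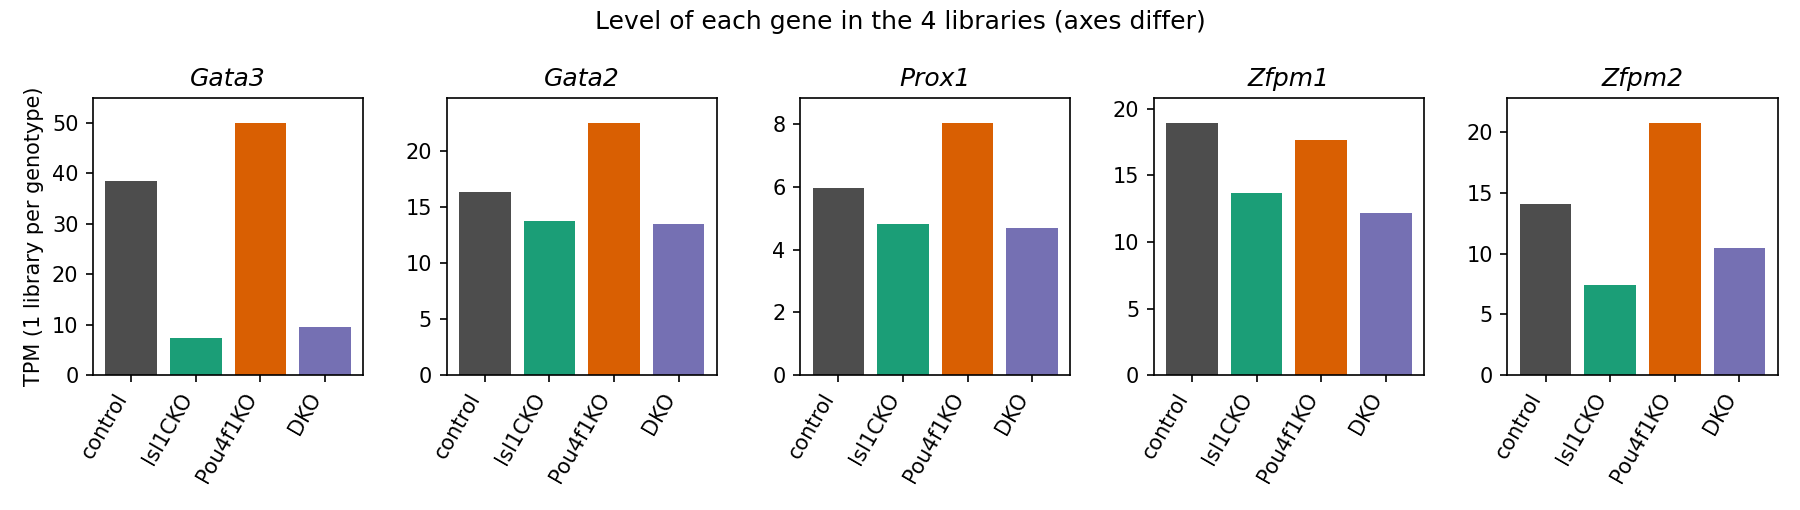
TPM (y axis, from 0, a separate scale for each gene) of the 5 genes in the 4 libraries (x axis), with 1 bar for each library and no error bars since each genotype has 1 library. Gata3 stands at 38.5 and 49.9 TPM in control and Pou4f1KO and at 7.39 and 9.43 TPM in the libraries labelled Isl1CKO and DKO, and the other genes are lower in those libraries by smaller amounts.

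Gata2 was also highest in Pou4f1KO and lower in both libraries marked for Isl1, by smaller amounts than Gata3. It stood at 16.3 TPM in control, 13.7 in the library labelled Isl1CKO, 22.5 in Pou4f1KO and 13.5 in the library labelled DKO. The 2 libraries marked for Isl1 lay within 0.03 of each other on the log2 scale. The log2 ratio was −0.23 for the library labelled Isl1CKO and −0.26 for the library labelled DKO, both against control, and −0.70 for the library labelled DKO against Pou4f1KO. The largest value was that of Pou4f1KO, 0.44 above control. Gata2 lies on chromosome 6 (88193891 to 88207032, plus strand, up to 6 exons).

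Prox1 was the least abundant of the 5 genes in every library. Its level was 5.96 TPM in control, 4.80 in the library labelled Isl1CKO, 8.04 in Pou4f1KO and 4.70 in the library labelled DKO, with a mean read depth of 22.8 to 44.4. Its log2 ratios followed those of Gata2: −0.26 and −0.29 for the libraries labelled Isl1CKO and DKO against control, 0.38 for Pou4f1KO against control and −0.66 for the library labelled DKO against Pou4f1KO. The ratio of Gata2 to Prox1 TPM was 2.74 in control, 2.86 in the library labelled Isl1CKO, 2.80 in Pou4f1KO and 2.87 in the library labelled DKO. Among the 10 pairs of the 5 genes, this pair had the most similar pattern (Euclidean distance of centred log2 values 0.044 over 4 libraries, against 0.34 to 1.85 for the other pairs). Prox1 lies on chromosome 1 (190118035 to 190170827, minus strand, up to 5 exons), and its first exon region overlaps an antisense locus, LOC102632463, that was listed at 0 in control and did not pass 0.54 TPM elsewhere. The paralog Prox2, a factor of visceral sensory neurons, did not share this order: it stood at 11.0 TPM in control, 12.6 in the library labelled Isl1CKO, 15.3 in Pou4f1KO and 13.03 in the library labelled DKO.

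The FOG genes were present at levels like that of Gata2. Zfpm1 (chromosome 8, 122282141 to 122337862, plus strand, up to 10 exons) stood at 18.9 TPM in control, 13.7 in the library labelled Isl1CKO, 17.7 in Pou4f1KO and 12.2 in the library labelled DKO. Its log2 ratio to control was −0.44, −0.09 and −0.60 in the same order of mutants, and it was the 1 gene of the 5 that was not above control in Pou4f1KO. Zfpm2 (chromosome 15, 40655042 to 41104592, plus strand, up to 8 exons) stood at 14.1 TPM in control, 7.42 in the library labelled Isl1CKO, 20.7 in Pou4f1KO and 10.5 in the library labelled DKO. It came closest to Gata3, with log2 ratios of −0.84 for the library labelled Isl1CKO against control and −0.92 for the library labelled DKO against Pou4f1KO, and neither reached 2-fold. Zfpm2 was also 0.53 above control in Pou4f1KO, and 0.45 higher in the library labelled DKO than in the library labelled Isl1CKO.

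Taking the 5 genes as a set, 1 (Gata3) was at least 2-fold lower and none higher in the library labelled Isl1CKO against control, where 0.618% of all compared genes were at least 2-fold lower and 0.585% higher. The same 1 gene was past 2-fold in the library labelled DKO against control (2.34% of all compared genes lower and 1.01% higher) and in the library labelled DKO against Pou4f1KO (1.12% lower and 0.645% higher). None of the 5 was past 2-fold in Pou4f1KO against control (0.977% of compared genes higher and 1.73% lower) or in the library labelled DKO against the library labelled Isl1CKO (2.1% in either direction). The median log2 ratio of the 5 genes was −0.44, 0.38 and −0.39 in the libraries labelled Isl1CKO, Pou4f1KO and DKO against control, beside medians of −0.02, 0.02 and −0.01 over all compared genes. Those 3 comparisons share the control library. For the library labelled DKO against Pou4f1KO the median was −0.70, beside −0.02. In all 5 genes both libraries marked for Isl1 lay below both others, a pattern found in 21.5% of compared genes.

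The Isl1 label was compared in both backgrounds, with pairs that share no library: the library labelled Isl1CKO against control, and the library labelled DKO against Pou4f1KO. In these pairs 32 of the 15049 compared genes (0.213%) were at least 2-fold lower both times, and Gata3 was among them. Ordered by the weaker of both differences, Gata3 came second of the 32, after Gnat3. The departure from additivity (the DKO ratio to control less the Isl1CKO and Pou4f1KO ratios added up) was −0.05 for Gata3, −0.06 for Zfpm1 and −0.08 for Zfpm2. All 3 turned positive, at 0.17, 0.16 and 0.14, when pan-neuronal genes were set equal between libraries, a scaling that moved the median of all compared genes in this measure to 0.20. The departure was −0.46 for Gata2 and −0.40 for Prox1. None of the 5 departures reached 1 in size, where 2.52% of compared genes did.

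**Figure D2:**
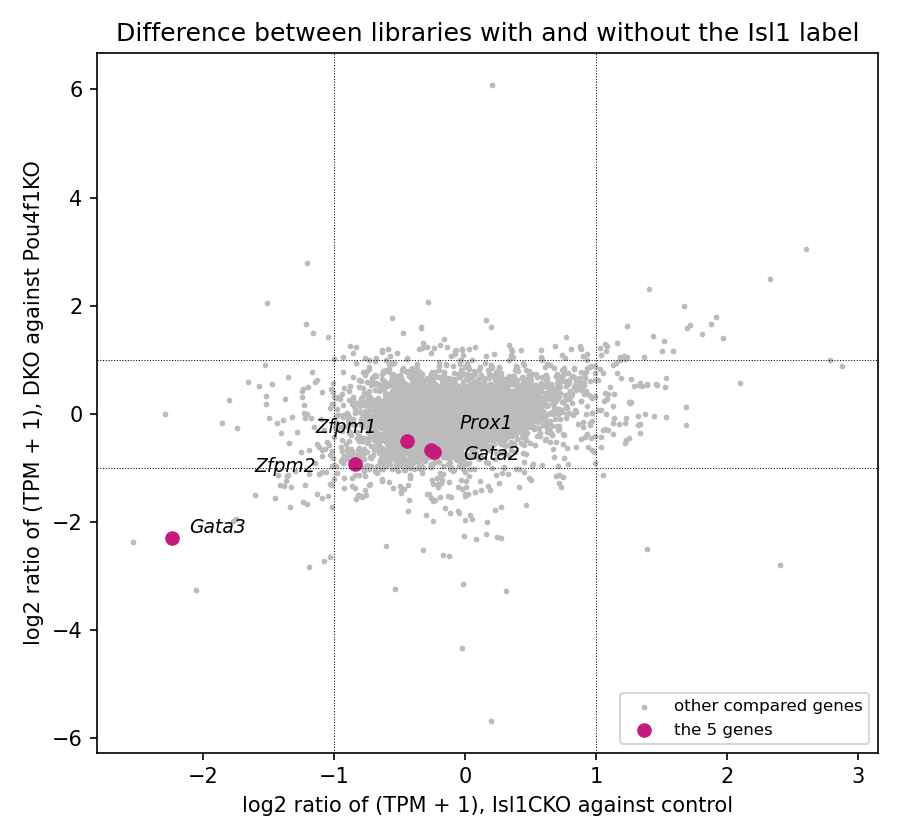
Each point is 1 of the 15049 compared genes, with the log2 ratio of (TPM + 1) of the library labelled Isl1CKO to control on the x axis and of the library labelled DKO to Pou4f1KO on the y axis; dotted lines mark 2-fold. Gata3 lies at −2.24 and −2.29, Zfpm2 at −0.84 and −0.92 just inside 2-fold, and Zfpm1, Gata2 and Prox1 closer to the centre, all below 0 on both axes.

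The balance between the genes shifted with Gata3. In control Gata3 was the most abundant of the 5, followed by Zfpm1, Gata2, Zfpm2 and Prox1. In both libraries marked for Isl1 it ranked 4, behind Gata2, Zfpm1 and Zfpm2. In the library labelled Isl1CKO the neighbours in that order lay close together: Gata2 and Zfpm1 both stood at 13.7 TPM, and Zfpm2 and Gata3 both at 7.4 within rounding. The ratio of Gata3 to Gata2 TPM was 2.36 in control and 2.22 in Pou4f1KO, against 0.54 and 0.70 in the libraries labelled Isl1CKO and DKO. The ratio of Gata3 to its cofactor gene Zfpm1 was 2.03 and 2.82 in control and Pou4f1KO, against 0.54 and 0.77. A ratio within a library does not depend on the scaling between libraries. Among all compared genes Gata3 stood at percentile 64.4 of the levels in control and 71.0 in Pou4f1KO, against 28.3 and 31.9 in the libraries labelled Isl1CKO and DKO.

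**Figure D3:**
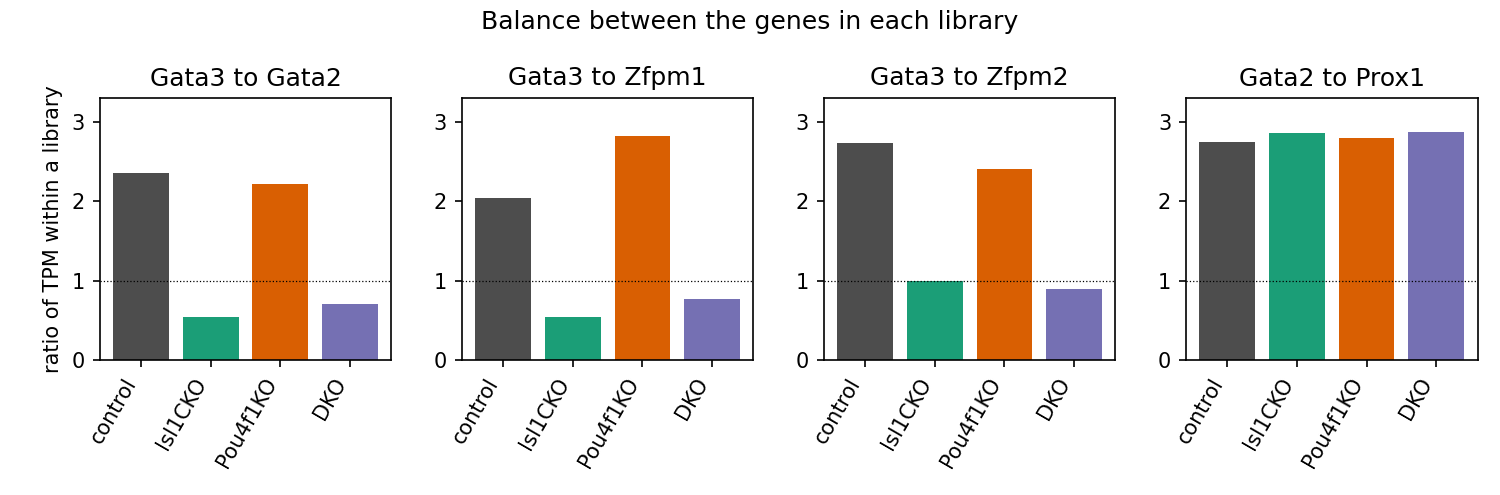
Ratio of the TPM values of 2 genes within each library (y axis, from 0; the dotted line marks equal levels), with 1 bar for each of the 4 libraries. Gata3 exceeds Gata2 and Zfpm1 more than 2-fold in control and Pou4f1KO and lies below them in the libraries labelled Isl1CKO and DKO, whereas the ratio of Gata2 to Prox1 lies between 2.74 and 2.87 in all of them.

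Of 24 other rows within 150 kb of the 5 genes, 13 were compared, and 1 of them was at least 2-fold different in any pair of libraries. This was 4930412O13Rik, chosen after its values were seen, which lies on the opposite strand with its start 2.65 kb upstream of that of Gata3 (chromosome 2, 9881246 to 9886767). It stood at 4.48 TPM in control, 1.52 in the library labelled Isl1CKO, 4.63 in Pou4f1KO and 1.59 in the library labelled DKO. Its log2 ratio was −1.12 in both pairs that compare the Isl1 label. The rows of both genes do not overlap in the files, but GENCODE M21 holds Gata3 transcripts that reach to 9890034, across this locus. Also beside Gata3, 9230102O04Rik (9883041 to 9889540) lies on the same strand as Gata3 and within the reach of those longer transcripts. It was at 0.857 TPM in control, 0.726 in the library labelled Isl1CKO, 1.88 in Pou4f1KO and 0.463 in the library labelled DKO. Its log2 ratio was −0.11 for the library labelled Isl1CKO against control and −0.98 for the library labelled DKO against Pou4f1KO. The part of Gata3 transcripts in its values was not tested. Farther upstream, Taf3, which encodes a subunit of the general transcription factor TFIID, was at 22.2, 19.6, 24.1 and 20.0 TPM in the order control, Isl1CKO, Pou4f1KO and DKO.

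The 250 bases before the start of Gata3 and of its divergent neighbour are shown because both genes were lower in the same libraries, and those of Gata2 and Prox1 because the levels of this pair kept a near-constant ratio. They come from RefSeq (GRCm38.p6, the same assembly as mm10), are read 5′ to 3′ on the strand of the gene, and end at the last base before the start. Capitals mark TAAT, the core bound by many homeodomain proteins, GATA, and the E-box CANNTG, each searched on both strands with overlapping matches counted. RefSeq windows were matched for 4 of the 5 genes, all but Zfpm2. Gata2 and Prox1 each have 2 windows there, and the one at the start given in the files is shown.
Gata3, chr2:9878601-9878850, minus strand: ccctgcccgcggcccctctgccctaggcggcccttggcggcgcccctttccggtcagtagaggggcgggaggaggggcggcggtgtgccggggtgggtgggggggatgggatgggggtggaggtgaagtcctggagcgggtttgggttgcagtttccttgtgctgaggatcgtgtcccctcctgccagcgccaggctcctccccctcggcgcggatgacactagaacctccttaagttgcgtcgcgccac
4930412O13Rik, chr2:9880996-9881245, plus strand: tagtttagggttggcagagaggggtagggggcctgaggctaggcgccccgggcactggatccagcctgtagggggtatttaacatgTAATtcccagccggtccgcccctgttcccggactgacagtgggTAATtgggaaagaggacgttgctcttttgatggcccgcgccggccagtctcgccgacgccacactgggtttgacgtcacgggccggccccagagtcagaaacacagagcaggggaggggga
Gata2, chr6:88193641-88193890, plus strand: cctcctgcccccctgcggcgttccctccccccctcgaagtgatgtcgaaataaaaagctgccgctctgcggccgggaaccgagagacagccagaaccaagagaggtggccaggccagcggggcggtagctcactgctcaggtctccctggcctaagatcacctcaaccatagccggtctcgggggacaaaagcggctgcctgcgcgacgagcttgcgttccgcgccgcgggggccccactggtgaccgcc
Prox1, chr1:190170828-190171077, minus strand: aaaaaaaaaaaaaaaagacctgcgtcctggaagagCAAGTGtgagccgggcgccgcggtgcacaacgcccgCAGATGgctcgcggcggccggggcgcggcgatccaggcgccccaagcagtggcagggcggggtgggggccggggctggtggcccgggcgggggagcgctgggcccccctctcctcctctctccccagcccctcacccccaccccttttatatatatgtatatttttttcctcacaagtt
The window of Gata3 is 70% G and C and held none of the 3 motifs, and neither did that of Gata2. The window of 4930412O13Rik held TAAT at 2 places, and that of Prox1 held 2 E-boxes. The second windows of Gata2 and Prox1 held none of the 3 motifs. Of 32817 windows of this length, 54.9% held TAAT, 53.6% held GATA and 66.2% held CANNTG. No match says only that these letters are not in the window.

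Genes with a pattern most like that of Gata3 over the 4 libraries were taken by the smallest Euclidean distance among 11610 genes at 5 TPM or more in the highest library. They were Gnat3 (distance 0.52), the gene of the taste transducer gustducin, Chrdl1 (0.54), a BMP antagonist, Zbed6 (0.76), a transcriptional repressor, the kainate receptor gene Grik3 (0.81), Ptar1 (0.84) and the zinc-finger gene Insm2 (0.85). The median distance of eligible genes was 2.27. With 4 libraries, such likeness is a description of these samples. Insm2 had a wider span than Gata3, at 4.09 TPM in control, 0.228 in the library labelled Isl1CKO, 12.6 in Pou4f1KO and 0.429 in the library labelled DKO. Chrdl1 stood at 41.5, 11.4, 73.4 and 17.9 TPM in the same order.

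Fgf10, a growth factor of the otic epithelium and its neuroblasts that earlier work placed downstream of Gata3 in the ear, stood at 96.5 TPM in control, 46.7 in the library labelled Isl1CKO, 143.6 in Pou4f1KO and 57.5 in the library labelled DKO. It kept the order of Gata3, with log2 ratios of −1.03 and −1.31 in both pairs that compare the Isl1 label.

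**Figure D4:**
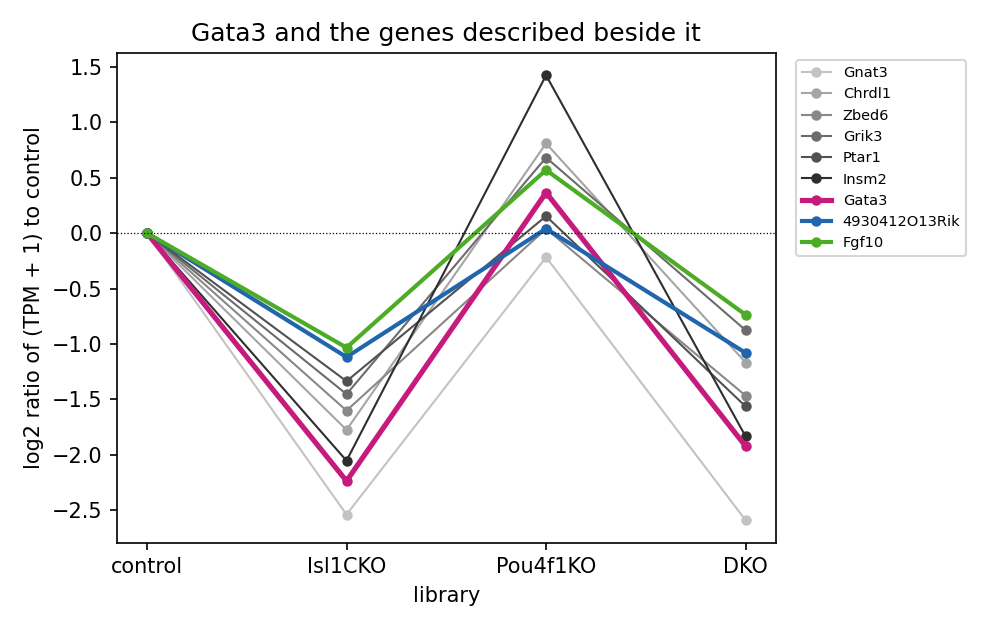
Log2 ratio of (TPM + 1) to control (y axis) in the 4 libraries (x axis) for Gata3, the 6 genes with the most similar pattern (grey to black), its divergent neighbour 4930412O13Rik and Fgf10; lines join the values of 1 gene and do not stand for an order. Gata3 goes to −2.24 and −1.92 in the libraries labelled Isl1CKO and DKO, 4930412O13Rik to −1.12 and −1.08, and Fgf10 to −1.03 and −0.74.

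The 15 genes listed for cochlear neurons include Gata3 and Prox1. In the library labelled Isl1CKO against control 0.618% of all compared genes were lower and 0.585% higher. Of the 15, 1 was lower (Gata3) and 1 higher there, with a median of −0.22. The higher one was Calb2, encoding the calcium-binding protein calretinin, at 3.20 TPM in control and 11.2 TPM (log2 ratio 1.54). Ntrk3, the TrkC receptor gene, had a log2 ratio of −0.67, and Slc17a7, which encodes the glutamate transporter VGLUT1, of 0.83. In Pou4f1KO, where 1.73% of all compared genes were lower, 1 of the 15 was lower, Runx1 (−1.28), with a median of 0.34. In the library labelled DKO against control 2.34% of all compared genes were lower and 1.01% higher. Of the 15, 4 were lower and Calb2 (1.43) was higher, with a median of −0.29. Besides Gata3 the lower genes were Runx1 (−1.78), the intermediate filament gene Prph (−1.39) and Esrrg (−1.37), which encodes an orphan nuclear receptor. Against Pou4f1KO, Gata3 alone of the 15 was past 2-fold in the library labelled DKO (median −0.49), with Ntrk3 at −0.96 and Prph at −0.95. In that comparison 1.12% of all compared genes were lower and 0.645% higher. Of 3 vestibular neuron genes, Tlx3 was above control in each mutant library (0.30, 0.37 and 0.46). Sall3 was below it (−0.74, −0.68 and −1.17), and so was Ntrk2, the TrkB receptor gene (−0.39, −0.34 and −1.37), in the order Isl1CKO, Pou4f1KO and DKO.

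Of the rest of the GATA family, Gata1 (1.06 to 1.59 TPM) and the atypical member Trps1 (6.42 to 9.09 TPM) were measured above 1 TPM. Gata4, Gata5 and Gata6 stayed at or below 0.31 TPM in every library. Of 20 genes for proteins that partner GATA factors, Zfpm1 and Zfpm2 included, 19 were compared. None was past 2-fold in the library labelled Isl1CKO against control (median −0.04), beside 0.618% of all compared genes lower and 0.585% higher. Members past 2-fold in other pairwise comparisons, all of them higher, were Lmo3, Cbfa2t3 and Ldb2. Of the 19, 1 was higher in Pou4f1KO against control (0.977% of all compared genes) and 2 in the library labelled DKO against control (1.01%). Against the library labelled Isl1CKO, 2 were past 2-fold in the library labelled DKO (2.1% in either direction). Against Pou4f1KO, 1 was higher in the library labelled DKO (0.645%). Lmo3, which encodes a LIM-only adaptor, stood at 0.838 TPM in control, 2.38 in the library labelled Isl1CKO, 2.72 in Pou4f1KO and 7.79 in the library labelled DKO, the log2 ratio to control of the last being 2.26. Cbfa2t3, encoding the co-repressor ETO2, was also higher there (1.11). Ldb2, a LIM-domain-binding adaptor gene, was at 5.23 TPM in the library labelled Isl1CKO and 12.8 in the library labelled DKO (log2 ratio 1.15), and its departure from additivity was 1.13. The adaptor gene Ldb1 stood at 280 to 311 TPM, Ctbp1 at 333 to 353 TPM and Ctbp2 at 131 to 195 TPM, the lower values of Ctbp2 being those of Pou4f1KO and the library labelled DKO. None of the 15 NuRD genes was past 2-fold in any of the 5 pairwise comparisons, and their medians lay between −0.02 and 0.00. The shares of all compared genes ran from 0.585% to 2.34% in a direction. At such shares a list of this size can hold none past 2-fold without differing from other genes. Chd3 had the largest ratio among the 15 (0.54, the library labelled DKO against control).

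The 5 genes are also made by other cells that a dissected ganglion can hold, and in bulk tissue fewer cells of a type and less RNA per cell cannot be told apart. Otic epithelium markers, where Gata3 is also made, summed to 939 TPM in control, 640 in the library labelled Isl1CKO, 504 in Pou4f1KO and 401 in the library labelled DKO, with none of the 23 at 0. In Pou4f1KO 17 of the 23 markers were at least 2-fold lower than in control, beside 1.73% of all compared genes, and Gata3 was 0.36 above control. In the library labelled DKO against Pou4f1KO the median of those markers was −0.12, beside −2.29 for Gata3. Of the 23, 3 were at least 2-fold lower (Fgf10, Hmx3 and Otol1), beside 1.12% of all compared genes. Oc90 was at least 2-fold higher, beside 0.645%. For the library labelled Isl1CKO against control the median of the 23 was −0.63, beside −2.24 for Gata3. In that comparison 3 were lower (Fgf10, Gbx2 and Otol1) and none higher, beside 0.618% and 0.585% of all compared genes. Fgf10, described above for its order like that of Gata3, belongs to this list. The part of otic epithelium in the Gata3 values was not tested.

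Mesenchyme markers, beside which Zfpm2 is known, summed to 415, 277, 331 and 473 TPM over 16 genes in the order control, Isl1CKO, Pou4f1KO and DKO, with none at 0. Both Zfpm2 and this sum were lowest in the library labelled Isl1CKO, while Zfpm2 was highest in Pou4f1KO and the sum in the library labelled DKO. The part of mesenchyme in the Zfpm2 values was not tested. Endothelial and lymphatic markers (16 genes, none at 0) summed to 176, 123, 158 and 190 TPM. The median log2 ratio to control of the 15 compared was −0.45, −0.12 and 0.19 in the libraries labelled Isl1CKO, Pou4f1KO and DKO. For Gata2 the same ratios were −0.23, 0.44 and −0.26, and for Prox1 −0.26, 0.38 and −0.29. The part of endothelium in the Gata2 and Prox1 values was not tested. Red cell and blood progenitor markers summed to 7291, 6487, 6053 and 7081 TPM over 14 genes, none at 0, and Zfpm1, Gata1 and Gata2 are known in these cells. All 14 stayed under 2-fold in each of the 5 pairwise comparisons, where 0.585% to 2.34% of all compared genes were past it in a direction. The part of blood cells in the Zfpm1 and Gata2 values was not tested.

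Genes of V2 interneurons, a ventral spinal and hindbrain class that makes Gata2 and Gata3, summed to 63.9, 40.7, 112 and 62.6 TPM over 10 genes without these 2. Most of this sum was Bhlhe22, at 59.2, 37.4, 102 and 55.7 TPM. The more specific Vsx1 and Sox14 were at 0 in all libraries but Pou4f1KO, where they stood at 0.058 and 0.050 TPM. Tal1, a partner of GATA factors in these neurons and in blood, stood at 3.46, 2.12, 2.82 and 3.08 TPM. Of 11 genes of visceral and efferent motor neurons, some of which also make Gata2 and Gata3, Nkx2-9 was at 0 in all libraries, Mnx1 at 0 in Pou4f1KO and the library labelled DKO, and Chat reached at most 0.40 TPM. The part of hindbrain cells in the Gata2 and Gata3 values of Pou4f1KO was not tested.

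**Figure D5:**
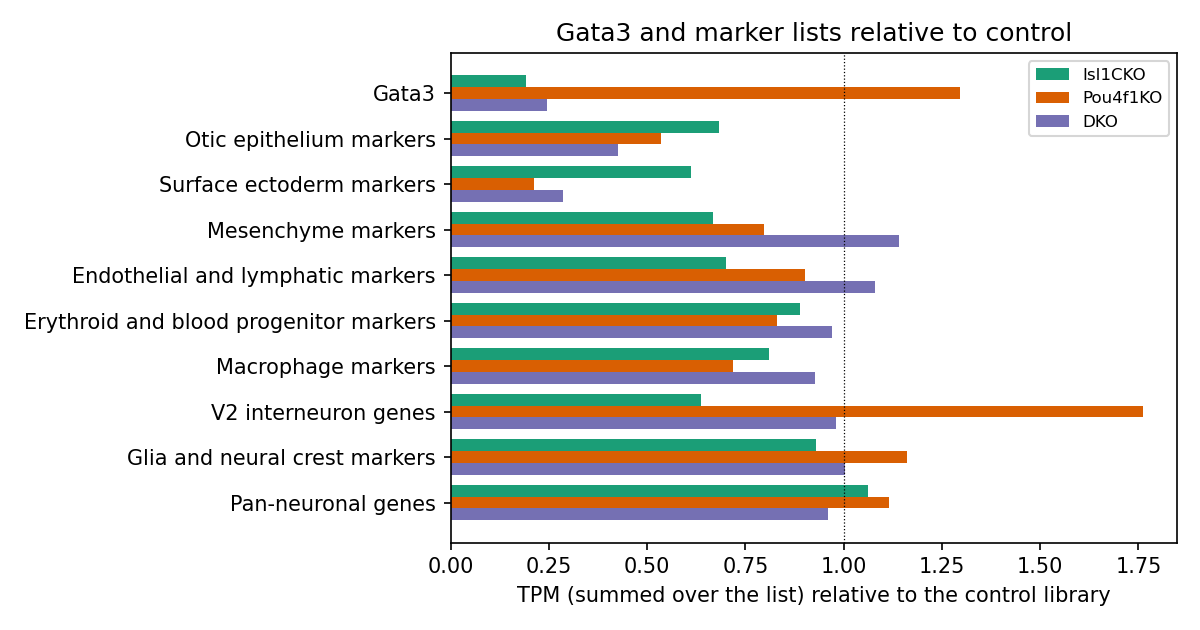
TPM relative to the control library (x axis, from 0; the dotted line marks control) for Gata3 and for the summed TPM of 9 lists of marker genes (y axis), with 1 bar for each mutant library. Gata3 is far below control in the libraries labelled Isl1CKO and DKO and above it in Pou4f1KO, whereas otic epithelium markers are below control in all of them.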

How the data were processed

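Strand-specific RNA-seq libraries of dissected, frozen ganglia were made from total RNA, per the labels' protocols. The submitters' processing notes name StringTie, HISAT2, Trimmomatic, SAMtools and FastQC, and mm10 as the build, without versions or settings. The authors deposited, per the file headers, TPM, FPKM and coverage (mean read depth over a gene, not scaled between libraries) for each gene. Deposited TPM had the same total in each library.

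TPM of rows with the same symbol were summed; each of the 5 genes has 1 row. The ratio of the deposited coverage to FPKM put the aligned sequence at 13.6 to 16.6 gigabases per library; read counts are not in the tables used here, so no counting interval is given. Compared genes had 1 TPM or more in some library, and differences are log2 ratios of (TPM + 1), which understate differences of weakly expressed genes. With 1 library per group no test was run. The ratios and the 2-fold count were tested on simulated data. Positions come from the files, exons from GENCODE M21 and promoter windows from RefSeq GRCm38.p6, read with Python 3.11.15, numpy 2.4.6 and pandas 2.3.3. Up to 4 genes with the largest ratios were named per list, and 6 genes most like Gata3 with an ordinary symbol on 1 row; levels of other list genes were given for context after their values were seen. The 5 genes and the 18 lists were chosen with earlier results of these data known. Alternatives were pseudocounts of 0.1 and 0.5, FPKM, median-of-ratios and pan-neuronal scaling, leaving out haemoglobin, ribosomal protein and Rn45s rows, and other filters. Some list genes are not reported here by name.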

Additional observations from a re-analysis of the deposited data

Results flagged for a closer look

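The difference tied to the Pou4f1 label had opposite signs in the 2 Isl1 backgrounds for Gata2 and Prox1. Gata2 was 0.44 above control in Pou4f1KO but 0.03 lower in the library labelled DKO than in the library labelled Isl1CKO (log2 ratio −0.03), a departure from additivity of −0.46. For Prox1 the same values were 0.38, −0.03 and −0.40. With 1 library each, these differences between backgrounds were not tested, and ratios of −0.03 are close to 0.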

How the results depend on the processing

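Each of 30 log2 ratios (5 genes in 6 comparisons) was recomputed under 6 alternatives. All 180 values stayed on the same side of 2-fold and within 1.5-fold of the reported value. The log2 ratio of Gata3 ranged from −2.37 to −2.01 in the library labelled Isl1CKO against control, from −2.08 to −1.75 in the library labelled DKO against control and from −2.39 to −2.06 in the library labelled DKO against Pou4f1KO. Signs differed only in the departure from additivity under pan-neuronal scaling, for the 3 genes named above. That scaling moved the median of all compared genes to −0.13, −0.25 and −0.17 in the libraries labelled Isl1CKO, Pou4f1KO and DKO against control. Without it these medians were −0.02, 0.02 and −0.01. The ratio of Gata3 in Pou4f1KO against control moved to 0.08.

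The number of compared genes past 2-fold depended on how low values were treated. The count of lower genes was 93 in the library labelled Isl1CKO against control, 287 with a pseudocount of 0.1, 160 with 0.5, 25 with FPKM and 51 with a filter of 5 TPM. For the library labelled DKO against Pou4f1KO it was 168, 369 with a pseudocount of 0.1, 69 with FPKM and 97 with a filter of 5 TPM. For the library labelled DKO against control it was 352, 605 with a pseudocount of 0.1 and 186 with FPKM. In all, 42 of 96 such counts moved by more than 1.5-fold, 41 of them with another pseudocount, FPKM or the 5 TPM filter. The other was the count of genes with a departure of at least 1, which was 212 and became 334 under pan-neuronal scaling. No paired analysis was possible because each genotype had 1 library. Leaving out a replicate was not possible for the same reason.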
